A study of Homo sapiens with 11 samples.

Results

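The 150 genes described here are protein-coding genes of prostate epithelial RWPE1 cells whose RNA stood highest after 6 h of hypoxia when set against both normoxia and 24 h of hypoxia. They were selected on measured values. Of 60676 genes in the count table, 11557 were protein-coding with a mean count of at least 50 over the libraries, and each of these eligible genes received a score, its mean log2 CPM at 6 h minus the larger of its means at 0 h and 24 h. CPM stands for counts per 1000000 reads after TMM scaling of the library sizes, and a prior count of 2 was added before taking logarithms. The 150 highest scores, from 3.16 down to 1.20 with a median of 1.42, defined the set. The choice was therefore made on the high values at 6 h and the low values at 0 h and 24 h. These are given as a description. The 12 h libraries did not enter the score, but they did enter the mean count filter and the scaling.

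RWPE1 is a single immortalized and non-tumorigenic line, grown in serum-free keratinocyte medium with EGF and bovine pituitary extract. The 11 libraries comprised 3 of normoxic cells (0 h) and, in hypoxia, 3 at 6 h, 3 at 12 h and 2 at 24 h, and the third library planned at 24 h was not analysed here. According to the labels, the medium of hypoxic cells alone was supplemented with 10 mM HEPES, so that low oxygen and the buffer cannot be told apart in any comparison with 0 h. No label states whether replicates were separate cultures, and p-values measure the spread between these libraries, which may be technical.

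Between 27496009 and 49488345 reads were counted per library. The basal keratins KRT5, KRT14 and KRT17 were present at 981 CPM or more in every library, and the 8 basal markers together at 12770 CPM or more. Of 8 luminal markers, the secretory product KLK3 had 0 counts throughout, but the keratins KRT8 and KRT18 were present, so that the list summed to between 232 and 262 CPM at 0 h and between 1068 and 1799 CPM at 24 h. The 6 endothelial markers had at most 10 counts in any library, the 7 immune markers summed to at most 5.01 CPM, mostly CD14, and the 8 fibroblast markers to at most 60.6 CPM, nearly all COL1A1. The part of other cell types in the values below was not tested. The 24 h libraries stood apart from each other: in 24 h replicate 2 the eligible genes with transcripts of 1500 bases or less lay a median of 1.12 above their mean over all libraries on the log2 scale, and those over 8000 bases lay 0.88 below it, against 0.28 above and 0.29 below in 24 h replicate 1. Results at 24 h are therefore given with and without each of these libraries for the set as a whole and for some genes. Values of other genes also moved between these fits, so a 24 h value given without such a check is not thereby stable. In bulk RNA, fewer cells that express a gene and less RNA per cell cannot be told apart.

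Cells that lose oxygen stabilise the hypoxia-inducible factors, which switch on genes of glycolysis, blood vessel growth and pH control. Many of these genes can stay raised while oxygen is low. Other transcripts appear early and decline while the stress continues. Among the best known of this kind are feedback inhibitors of growth factor signalling, whose messages are short-lived, and chaperones of the heat shock response, which hold and refold unfolded proteins and whose own accumulation restrains the factor that induces them.

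Over the whole set, the median of the log2 CPM values rose and fell with the time points. It lay between 4.24 and 4.28 in the 0 h libraries, between 5.86 and 6.16 at 6 h, between 5.12 and 5.24 at 12 h, and at 4.36 and 4.15 in the 24 h libraries. The members together took between 0.775% and 0.792% of all counts at 0 h, between 2.51% and 2.66% at 6 h, and from 1.57% to 1.65% at 12 h. At 24 h their share was 0.772% in replicate 1 and 0.401% in replicate 2. The log2 fold change at 6 h against 0 h ran from 1.21 to 5.36 with a median of 1.71, and that at 24 h against 6 h from -3.23 to -1.05 with a median of -1.57. Every 6 h library lay above every 0 h and 24 h library in 149 members, which was the case for 14.5% of the eligible genes; nothing is read from this count, because the score selected for it.

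**Figure D1:**
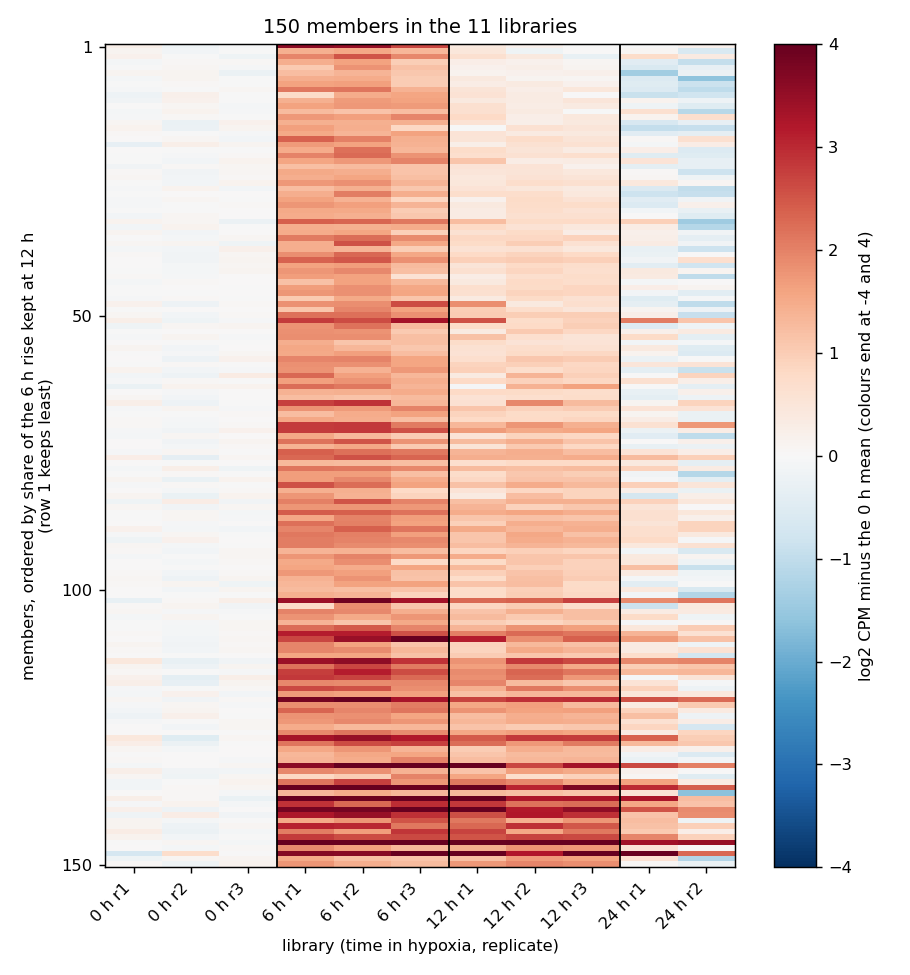
Each row is 1 of the 150 members and each column 1 of the 11 libraries; colour gives log2 CPM minus the gene's 0 h mean, and rows are ordered by the share of the 6 h rise kept at 12 h. The 6 h columns are red throughout because the genes were chosen on them, the 12 h columns are paler in most rows, and the 24 h columns hold both red and blue rows.

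The limit of the set was not a gap. The last members were PIK3R1, a regulatory subunit of PI3-kinase, PSPN, a neurotrophic factor of the GDNF family, and CHST15, a sulfotransferase of chondroitin, with scores of 1.21, 1.21 and 1.20. The first genes outside were PDP2, KDM2A and ZBED6, with scores of 1.20, 1.19 and 1.19.

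The 12 h libraries show how far the peak had come down. The mean at 12 h lay between those of 0 h and 6 h in 146 members (97.3%, against 50.1% of eligible genes), and above the 0 h mean in all 150. Members were selected for a wide gap between 0 h and 6 h, which holds the 12 h mean more easily. The 50.1% is therefore not a like background. On the log2 scale the median member kept 60.1% of its 6 h rise at 12 h, with a range from 5.41% to 123%. At 24 h the median share was 5.16%, with a range from -82.6% to 72.3%, where a negative share is a level below 0 h.

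A gene was called where edgeR's quasi-likelihood test on all 11 libraries gave a Benjamini-Hochberg adjusted p under 0.05 over the 19981 genes tested. All 150 members were among those tested. The 0, 6 or 24 h libraries that enter each comparison had also been used by the score, so the counts of members are descriptions to be read beside the share of all tested genes and are not independent evidence. At 12 h against 0 h, 131 members were called higher (background 24.2%) and 0 lower (background 27.1%), with a median log2 fold change of 0.98. Every 12 h library exceeded every 0 h library in 142 members, against 41.1% of the eligible genes. At 12 h against 6 h, 75 members were called lower (background 3.07%) and 0 higher (background 1.88%), with a median of -0.74. This count moved with single libraries, falling to 12 and 26 when replicate 3 or 2 of 12 h was left out, and to 38 and 28 when replicate 1 or 2 of 6 h was. Every 12 h library fell below every 6 h library in 112 members, against 18.1% of the eligible genes.

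At 24 h against 12 h, 106 members were called lower (background 13.3%) and 0 higher (background 15.1%), with a median log2 fold change of -0.86, and every 12 h library lay above both 24 h libraries in 129 members (28.5% of the eligible genes). In the 3 comparisons in which edgeR called 0 members in one direction, 0 passed at an unadjusted p under 0.05, and limma-voom and DESeq2 called 0 as well. The members whose log2 fold change pointed that way numbered 0, 4 and 2. Single calls were less firm than these counts: when each of the 11 libraries was left out in turn, 26 of the 131 members called higher at 12 h against 0 h lost their call at least once, as did 63 of the 75 called lower at 12 h than at 6 h and 38 of the 106 called lower at 24 h than at 12 h.

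Against 0 h, most members were called in neither direction at 24 h, and the share called higher was near the background. edgeR called 42 higher (28.0%, background 29.9%), 14 lower (9.33%, background 31.3%) and 94 in neither direction, and the median log2 fold change was 0.12. The 42 also had the highest medians earlier, with log2 fold changes of 2.35 at 6 h, 1.66 at 12 h and 1.07 at 24 h. The 14 stood at 1.43, 0.43 and -0.69, and the other 94 at 1.58, 0.86 and -0.01. The score builds this order in at 6 h, since genes still above 0 h at 24 h needed a larger 6 h rise to be selected. The order is therefore given as a description. Scaling by library size alone in place of TMM moved the median of all tested genes by -0.91 in this comparison and gave 9 members higher and 75 lower. Of the 42 and 14 calls, 24 and 8 were lost at least once when a single library was left out. Leaving out 24 h replicate 1 gave 27 higher and 36 lower, and leaving out the other 24 h library gave 52 and 13.

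**Figure D2:**
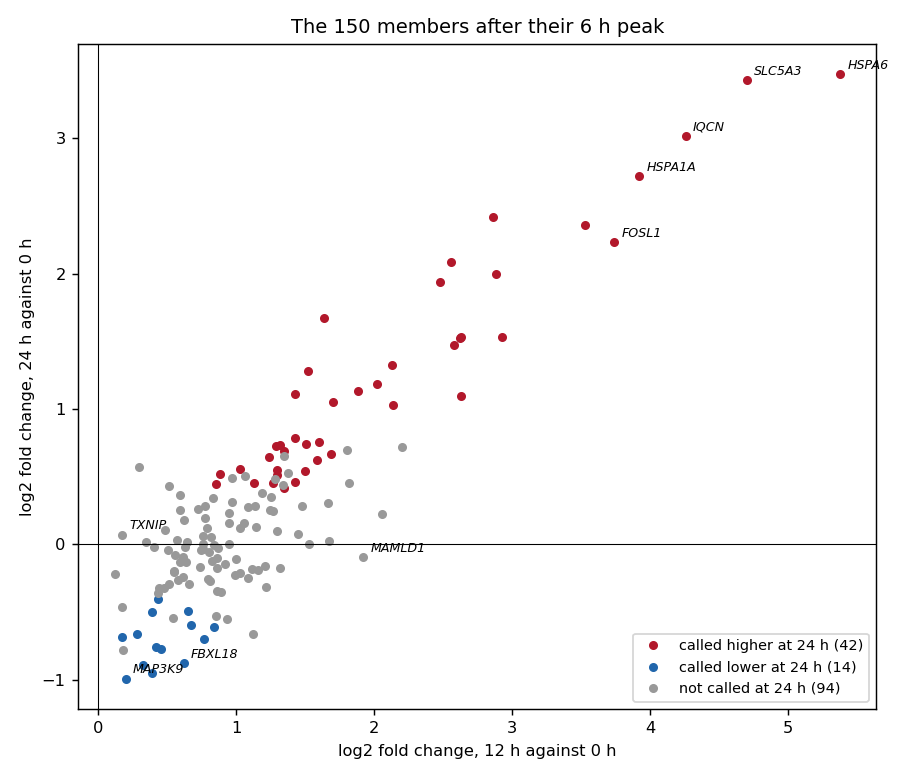
Each point is 1 of the 150 members, with its log2 fold change at 12 h against 0 h on the x axis and at 24 h against 0 h on the y axis; colours give the edgeR call at 24 h. All points lie right of 0 at 12 h, and at 24 h 42 were called higher and 14 lower.

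The steepest members belonged to the HSP70 family, the chaperones that bind unfolded polypeptides. HSPA1A (chr6:31815543-31817946 on GRCh38, plus strand) had 140.5, 158 and 160.1 CPM at 0 h, 2572, 3143 and 4671 at 6 h, 3602, 1265 and 2078 at 12 h, and 1204 and 814 at 24 h. All hypoxic libraries lay above the normoxic ones, the 6 h and 12 h libraries overlapped, and both 24 h libraries were lower than any at 12 h. By edgeR's quasi-likelihood test its log2 fold change was 3.92 at 12 h against 0 h (SE 0.38, adjusted p = 9.06e-06; exact two-sided permutation p = 0.1, the smallest that 3 libraries against 3 allow) and 2.72 at 24 h (SE 0.38, adjusted p = 6.06e-05). HSPA1B encodes the same protein from a neighbouring gene, and 73.8% of the 75-base windows of the HSPA1A transcript occur in HSPA1B, so reads could be split or lost between them and their levels are uncertain. In HSPA1B, 36.5% of the exonic bases also lie in exons of another gene on the same strand.

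HSPA6, a strictly stress-inducible relative, varied several-fold between replicates. It had 0.531, 1.47 and 0.866 CPM at 0 h, 11.8, 11.8 and 92.1 at 6 h, 82.7, 8.53 and 26.8 at 12 h, and 16.3 and 4.52 at 24 h. One 6 h library and one 12 h library stood several times above the others of their time, yet every hypoxic library exceeded every normoxic one. Its log2 fold change at 12 h was 5.37 (SE 1.06, adjusted p = 0.00127 by edgeR), and at 24 h it was 3.47 (adjusted p = 0.014), a call that was lost with limma-voom (adjusted p = 0.0643) and without 24 h replicate 1 (2.21, adjusted p = 0.216).

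HSPA1L, the testis-enriched member that lies head to head with HSPA1A, had 4.76, 4.40 and 5.00 CPM at 0 h, 30.3, 52.5 and 78.6 at 6 h, 42.0, 17.4 and 25.2 at 12 h, and 15.5 and 10.6 at 24 h. It too was lowest in normoxia and lower at 24 h than in any 12 h library. The co-chaperones were weaker. BAG3, which links HSP70 to selective autophagy, had 124, 104 and 123 CPM at 0 h, 208, 235 and 461 at 6 h, 348, 189 and 222 at 12 h, and 122 and 84.0 at 24 h, so that its 24 h libraries had returned to the range of normoxia or below it. DNAJA4, a J-domain partner of HSP70 that was picked out after its values were seen, was called higher at 12 h (2.20, edgeR adjusted p = 0.000381) and stood at 0.72 at 24 h (adjusted p = 0.152).

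The DNA before the start of HSPA1A, HSPA1B and HSPA6 holds the inverted pair of short sites that heat shock factors bind, written here as GAANNTTC, where N is any base. It is shown for these 3 as the chaperones that carried the largest changes, as the 250 bases before the start of the RefSeq transcript on GRCh38.p14, 5′ to 3′ on the gene's own strand, with the match in capitals. The HSPA1A window is chr6:31815293-31815542 on the plus strand, the HSPA1B window chr6:31827488-31827737 on the plus strand, and the HSPA6 window chr1:161524290-161524539 on the plus strand.
HSPA1A: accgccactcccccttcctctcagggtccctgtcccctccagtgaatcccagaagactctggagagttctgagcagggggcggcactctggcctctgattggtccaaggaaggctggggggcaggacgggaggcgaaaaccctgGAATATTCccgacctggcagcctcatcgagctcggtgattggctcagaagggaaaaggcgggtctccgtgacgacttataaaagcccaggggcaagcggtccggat
HSPA1B: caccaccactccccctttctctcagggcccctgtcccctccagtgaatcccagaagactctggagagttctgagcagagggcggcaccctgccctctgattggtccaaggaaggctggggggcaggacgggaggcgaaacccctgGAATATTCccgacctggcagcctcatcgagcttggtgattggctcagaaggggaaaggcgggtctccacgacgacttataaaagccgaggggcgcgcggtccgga
HSPA6: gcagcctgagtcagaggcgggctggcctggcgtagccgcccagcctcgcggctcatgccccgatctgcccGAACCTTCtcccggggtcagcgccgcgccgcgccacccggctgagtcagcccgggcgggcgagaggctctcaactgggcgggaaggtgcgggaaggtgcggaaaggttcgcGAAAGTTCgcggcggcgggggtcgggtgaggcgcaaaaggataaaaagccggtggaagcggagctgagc
The match began 106 bases before the start in HSPA1A and 105 before it in HSPA1B, and the 2 matches in HSPA6 began 180 and 69 bases before it. The windows of HSPA1A and HSPA1B were identical at 235 of 249 positions (94.4%) once shifted by 1 base. The window of HSPA1L, on the minus strand, shares 241 of its 250 bases with that of HSPA1A, so the same match lies between the starts of both genes. The co-chaperone BAG3 was also called higher at 12 h, but its window in the promoter search below held no match. In that search the motif was in 7.62% of member windows, against 4.52% of eligible and 6.87% of all windows. Whether heat shock factors acted at these sites was not tested.

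The heat shock list of 15 genes, all tested and eligible, held 3 members, BAG3, HSPA1A and HSPA1B. At 12 h against 0 h edgeR called 14 of the 15 higher and 1 lower (background 24.2% and 27.1%), with a median of 1.73. At 24 h it called 12 higher and 1 lower (background 29.9% and 31.3%), with a median of 1.82. Of the 15, 3 were called lower at 24 h than at 12 h (background 13.3%).

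**Figure D3:**
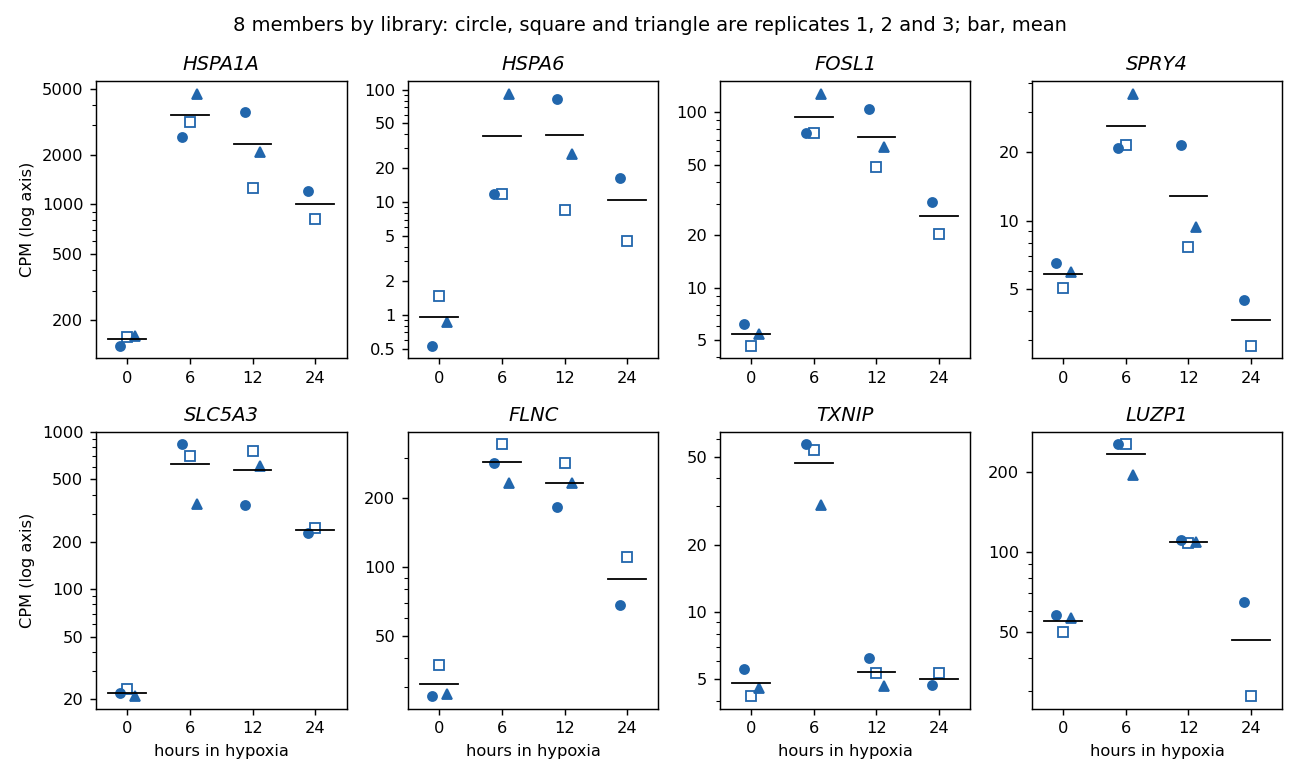
Each panel gives 1 member, with hours in hypoxia on the x axis and CPM on a log y axis; symbols are the replicates and bars the means. HSPA6 and SPRY4 are highest in 6 h replicate 3 and 12 h replicate 1, SLC5A3 is lowest there, TXNIP is back near its 0 h level at 12 h, and the LUZP1 values at 12 h hardly spread.

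A second group consisted of targets and brakes of the ERK pathway. EGF, which can activate this pathway, was in these cells' medium, but ERK activity was not measured. SPRY4, a Sprouty protein that damps signalling from receptor tyrosine kinases, had 6.54, 5.06 and 5.96 CPM at 0 h, 20.7, 21.5 and 35.9 at 6 h, 21.3, 7.67 and 9.41 at 12 h, and 4.49 and 2.83 at 24 h. The highest 12 h library fell within the 6 h range, and both 24 h libraries lay under every normoxic one. edgeR called it higher at 12 h (1.12, SE 0.35, adjusted p = 0.0177), a call lost without 12 h replicate 1 (0.55, adjusted p = 0.122) or 0 h replicate 2 (1.02, adjusted p = 0.0681), and gave -0.67 at 24 h (adjusted p = 0.186).

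DUSP6, a phosphatase that inactivates ERK in the cytoplasm, had 3.95, 2.98 and 3.27 CPM at 0 h, 23.9, 21.1 and 34.5 at 6 h, 19.9, 5.60 and 6.46 at 12 h, and 14.2 and 7.41 at 24 h. It was 1 of 2 members, with the antioxidant enzyme GPX3, whose 12 h mean fell below the 24 h mean, and 28.6% of its exonic bases overlap exons on the opposite strand. Its calls at 12 h (1.64, adjusted p = 0.00722 by edgeR) and 24 h (1.67, adjusted p = 0.00827) were both higher, and the latter was lost without 24 h replicate 1 (1.06, adjusted p = 0.123). DUSP7, a related phosphatase, was called higher at 12 h (0.39) and lower at 24 h (-0.50, edgeR adjusted p = 0.0229), but the call at 12 h was lost whenever a library of 0, 6 or 12 h was left out (0.26 to 0.47, adjusted p up to 0.207) and that at 24 h in 3 such fits (adjusted p up to 0.0832).

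FOSL1, the AP-1 subunit FRA1 that ERK stabilises, had 6.22, 4.67 and 5.41 CPM at 0 h, 76.7, 76.7 and 128 at 6 h, 105, 48.8 and 63.7 at 12 h, and 30.9 and 20.2 at 24 h. No hypoxic library came near the normoxic range, and both 24 h libraries were under every 12 h library. It was called higher at 12 h (3.74, SE 0.32, adjusted p = 4.38e-06 by edgeR) and 24 h (2.23, adjusted p = 8.84e-05), and lower at 24 h than at 12 h (-1.50, adjusted p = 0.00725). CCND1, the cyclin that carries growth factor signals to the cell cycle, had 68.4, 61.0 and 65.1 CPM at 0 h, 188, 219 and 165 at 6 h, 132, 177 and 159 at 12 h, and 79.8 and 74.4 at 24 h, and was called lower at 24 h than at 12 h (-1.02, edgeR adjusted p = 0.00243).

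These 5 were the members on a list of 23 ERK feedback and target genes, all tested and 22 eligible. Of the 23, edgeR called 16 higher and 1 lower at 12 h (background 24.2% and 27.1%). At 24 h it called 11 higher and 3 lower (background 29.9% and 31.3%). FOSL1 was also the single member among 26 eligible immediate early and AP-1 genes. Of 30 such genes tested, 14 were called higher and 4 lower at 12 h (background 24.2% and 27.1%).

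Adaptors and kinases at receptors were further members, grouped after their values were seen. IRS1, which couples the insulin and IGF receptors to PI3-kinase, had 25.1, 24.9 and 26.6 CPM at 0 h, 101, 123 and 88.8 at 6 h, 40.5, 38.9 and 40.7 at 12 h, and 18.2 and 18.1 at 24 h. The 4 time points did not overlap, and the order was 6 h, 12 h, 0 h and 24 h. edgeR called it higher at 12 h (0.65, SE 0.14, adjusted p = 0.00178) and lower at 24 h (-0.49, adjusted p = 0.0149), but with an offset for transcript length and GC content the value at 24 h was 0.42. All 7 genes of this kind (IRS1, PIK3R1, the ubiquitin ligase CBL, the adaptors CRKL and SH2B3, and the kinases ABL2 and PEAK1) were called higher at 12 h, and 6 were called lower at 24 h than at 12 h, against 87.3% and 70.7% of all members, the exception being ABL2 (-0.56, edgeR adjusted p = 0.302). The call of CRKL at 24 h against 12 h was lost in 9 of the 11 fits that left out a library (adjusted p up to 0.134) and that of ABL2 at 12 h in 4 (adjusted p up to 0.077).

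The member that kept the most of its change over the day was SLC5A3, which imports myo-inositol, an organic osmolyte. It had 21.9, 23.2 and 20.9 CPM at 0 h, 836, 704 and 348 at 6 h, 345, 758 and 609.6 at 12 h, and 228 and 246 at 24 h. Every hypoxic library was far above the normoxic ones and the 6 h and 12 h ranges overlapped. Its log2 fold change was 4.70 at 12 h (SE 0.36, adjusted p = 2.30e-06 by edgeR) and 3.43 at 24 h (SE 0.35, adjusted p = 7.28e-06). Other members with roles in cell volume, named after their values were seen, were NFAT5, the transcription factor of hypertonic stress, and LRRC8A, an essential subunit of the volume-regulated anion channel. NFAT5 was called higher at 12 h (1.21, edgeR adjusted p = 0.0139) and had 74.8 and 16.4 CPM in the 24 h libraries against 51.2, 52.7 and 49.5 at 0 h, so that the 24 h pair lay on both sides of normoxia. Its log2 fold change at 24 h against 0 h was -1.70 without 24 h replicate 1 and 0.53 without replicate 2. LRRC8A was called higher at 12 h (1.43) and 24 h (0.46, edgeR adjusted p = 0.0189), the latter lost when 0 h replicate 1 or 2 or 24 h replicate 1 was left out (down to 0.25, adjusted p = 0.128).

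Of the G protein-coupled receptors described here, F2RL1, the protease-activated receptor PAR2, had 34.0, 36.1 and 32.7 CPM at 0 h, 183, 179 and 155 at 6 h, 95.1, 102 and 93.4 at 12 h, and 53.1 and 46.9 at 24 h. Its time points did not overlap, and after 6 h each later one was lower while staying above normoxia. GPR75 had 0.601, 0.560 and 0.697 CPM at 0 h, 4.61, 4.70 and 3.87 at 6 h, 2.13, 1.87 and 1.97 at 12 h, and 0.513 and 0.763 at 24 h, the last pair on both sides of the normoxic libraries. Both were called higher at 12 h (1.50 and 1.67). At 24 h F2RL1 stood at 0.54 (edgeR adjusted p = 0.00424) and GPR75 at 0.02 (adjusted p = 0.99).

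FLNC, the muscle filamin that crosslinks actin and is a client of BAG3, had 27.4, 37.5 and 27.8 CPM at 0 h, 286, 344 and 234 at 6 h, 184, 284 and 234 at 12 h, and 68.1 and 110.4 at 24 h. The 6 h and 12 h libraries overlapped, and both 24 h libraries lay between these and normoxia. It was called higher at 12 h (2.92, SE 0.24, adjusted p = 3.88e-06 by edgeR) and at 24 h (1.53, adjusted p = 0.00021). LUZP1, an actin and centrosome protein, had 58.1, 50.2 and 56.3 CPM at 0 h, 254, 254 and 195 at 6 h, 111, 108 and 109 at 12 h, and 65.0 and 28.7 at 24 h, the 24 h pair again on both sides of normoxia.

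TXNIP, which binds thioredoxin and limits glucose uptake, had the highest score and the sharpest peak. It had 5.57, 4.18 and 4.57 CPM at 0 h, 56.9, 53.8 and 30.2 at 6 h, 6.22, 5.33 and 4.64 at 12 h, and 4.71 and 5.34 at 24 h. All 6 h libraries stood several times above the rest, and the 12 h and 24 h libraries lay within or just above the normoxic range. It kept 5.41% of its rise at 12 h, the smallest share in the set, and its log2 fold change at 12 h against 6 h was -3.12 (SE 0.24, adjusted p = 0.000112 by edgeR). At 12 h against 0 h the log2 fold change was 0.17 (SE 0.23, adjusted p = 0.556). The next smallest shares belonged to KLHL15 (6.98%), an adaptor of a ubiquitin ligase, GPX3 (12.0%), C2CD2 (12.4%) and NF2 (12.9%), the tumour suppressor merlin, and none of these 4 was called at 12 h against 0 h by edgeR (adjusted p = 0.641, 0.399, 0.442 and 0.471). TXNRD1, thioredoxin reductase and a member named after its values were seen, was called higher at both 12 h (1.30) and 24 h (0.51, edgeR adjusted p = 0.00628).

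At the other end, 4 members ran against the description of a 6 h peak, since their mean at 12 h exceeded that at 6 h. They were HSPA6, MAMLD1, a nuclear co-activator, AHNAK, a giant scaffold protein under the plasma membrane, and ENSG00000269825, a gene without a symbol, 7.99% of whose exonic bases lie in exons of ZNF83 on the same strand. MAMLD1 had 0.809, 0.693 and 0.866 CPM at 0 h, 2.84, 2.27 and 1.97 at 6 h, 2.74, 3.23 and 3.02 at 12 h, and 0.813 and 0.654 at 24 h. Its 6 h and 12 h libraries overlapped and its 24 h libraries were within or just under the normoxic range. AHNAK had 3502, 2953 and 2402 CPM at 6 h and 2583, 3274 and 3176 at 12 h, against 954, 904 and 990.1 at 0 h. For none of the 4 did edgeR call a difference between 12 h and 6 h (lowest adjusted p = 0.37).

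Several members serve ribosome assembly, RNA synthesis by polymerases I and III or gene expression in mitochondria, a grouping made after their values were seen. URB2, a nucleolar factor of ribosome assembly, had 13.6, 13.2 and 14.6 CPM at 0 h, 58.0, 65.3 and 51.0 at 6 h, 24.8, 24.5 and 26.3 at 12 h, and 16.3 and 10.7 at 24 h. The 6 h, 12 h and 0 h libraries did not overlap, and the 24 h pair lay on both sides of normoxia. POLR1G, a subunit of polymerase I with 49.8% of its exonic bases overlapped on the other strand, GTF3C4, a subunit of the polymerase III factor TFIIIC, TWNK, the helicase of mitochondrial DNA, FASTKD5, which processes mitochondrial RNA, and MARS2, the mitochondrial methionyl-tRNA synthetase, made up the remainder. All 6 were called higher at 12 h than at 0 h and lower at 12 h than at 6 h, as were 87.3% and 50% of all members, with a median of 2.01 at 6 h and 0.90 at 12 h (log2, against 0 h). At 24 h against 0 h edgeR called FASTKD5 alone of the 6 (0.42, adjusted p = 0.0341). This call was lost with limma-voom (adjusted p = 0.0522) and when any 0 h library, 12 h replicate 2 or 24 h replicate 1 was left out (down to 0.21, adjusted p = 0.269), and with the offset for transcript length and GC content URB2 (0.54), TWNK (0.79) and GTF3C4 (0.32) were called higher. Without the offset, leaving out 24 h replicate 1 gave -0.42 for URB2, -0.05 for POLR1G, -0.485 for GTF3C4, 0.60 for TWNK and -0.095 for MARS2. Leaving out 24 h replicate 2 gave 0.22, -0.28, -0.13, -0.16 and -0.28 in the same order. Of 35 eligible ribosome biogenesis genes on a list fixed for this work, which left out URB2, 0 were members. Over all eligible genes, 150 of 11557 were, so no contrast is drawn. Of the 35, edgeR called 33 higher at 12 h (background 24.2%) and 28 at 24 h (background 29.9%).

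Transcriptional repressors and co-repressors were another group collected after the values were seen, 10 genes in all. SPEN, a giant co-repressor that recruits histone deacetylases, had 129, 131 and 137 CPM at 0 h, 828, 768 and 483 at 6 h, 354, 566 and 480 at 12 h, and 249 and 114 at 24 h. Hypoxic libraries at 6 h and 12 h overlapped and all exceeded normoxia, whereas one of the 24 h libraries was above and the other below it. BEND3, which binds unmethylated CpG-rich DNA, had 7.56, 6.74 and 7.93 CPM at 0 h, 33.3, 42.2 and 26.0 at 6 h, 17.8, 20.5 and 16.4 at 12 h, and 7.45 and 8.45 at 24 h, with 24 h back at the normoxic level. Of the 10, edgeR called 9 higher at 12 h, the exception being HIC1 (0.32, adjusted p = 0.318), and 9 lower at 24 h than at 12 h (87.3% and 70.7% of all members), the exception being BACH1 (-0.57, adjusted p = 0.0542). At 24 h against 0 h, BACH1 and TGIF2 were called higher (0.72 and 0.78) and HIC1, with 29.8% of its exonic bases overlapped on the other strand, and BACH2 lower (-0.89 and -0.77). HIC1 lost this call with limma-voom (adjusted p = 0.0712) and in 4 of the 11 fits that left out a library (adjusted p up to 0.104), BACH1 lost its own without 24 h replicate 2 (adjusted p = 0.0555), and BACH2 lost its call at 12 h in 6 such fits (adjusted p up to 0.145). Members of the Hippo pathway, the kinase LATS2, its activator NF2, the DNA-binding factor TEAD1 and its cofactor VGLL3, numbered 4. In the fit of all 11 libraries 3 were called higher at 12 h, 4 lower at 24 h than at 12 h and 0 at 24 h against 0 h in either direction. This last comparison depended on the 24 h library. Without 24 h replicate 1 LATS2, NF2, TEAD1 and VGLL3 stood at 0.06, -0.375, -1.225 and -0.115. Without 24 h replicate 2 they stood at 0.24, -0.645, -0.11 and 0.77. The call of NF2 at 24 h against 12 h was lost in 8 of the 11 fits that left out a library (adjusted p up to 0.132), and that of VGLL3 in 3.

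Among the members called at 24 h against 0 h, the lowest values were those of MAP3K9, a kinase of the JNK pathway (-0.99), AMER1, which regulates beta-catenin (-0.95), HIC1 (-0.89), FBXL18, an F-box protein with 33.3% of its exonic bases overlapped on the other strand (-0.88), and BACH2 (-0.77). The highest were those of HSPA6 (3.47), SLC5A3 (3.43), IQCN (3.02) and HSPA1A (2.72). IQCN rested on few reads, with 0.162, 0.133 and 0.0962 CPM at 0 h and 1.71 and 0.382 at 24 h, and its call at 24 h was lost without 24 h replicate 1 (1.47, edgeR adjusted p = 0.204). THBS1, the matrix protein thrombospondin-1 and the single member on a list of angiogenic factors, had 32.7, 23.2 and 26.9 CPM at 0 h, 121, 167 and 180.5 at 6 h, 128, 91.0 and 116 at 12 h, and 67.5 and 58.3 at 24 h. Its 24 h libraries lay below all 12 h and above all 0 h libraries, and it was called higher at 24 h (1.19, adjusted p = 0.000362 by edgeR). Of the 14 angiogenic genes tested, 10 were called higher and 1 lower at 12 h (background 24.2% and 27.1%), and 11 and 2 at 24 h (background 29.9% and 31.3%).

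The remaining genes of the 30 highest scores had mixed functions. KCNK12, a potassium channel subunit, had 0.462, 0.293 and 0.481 CPM at 0 h, 3.25, 2.95 and 2.16 at 6 h, 1.59, 2.13 and 1.49 at 12 h, and 0.385 and 0.600 at 24 h, and NNAT, the imprinted proteolipid neuronatin, had 3.37, 3.25 and 2.57, 16.3, 15.6 and 13.3, 7.24, 5.28 and 5.30, and 5.95 and 1.09 CPM. In NNAT the 24 h libraries lay on both sides of all 0 h libraries, and edgeR gave 0.94 (adjusted p = 0.00472) at 24 h against 0 h without 24 h replicate 2 and -1.54 (adjusted p = 0.00146) without replicate 1. PALM2AKAP2, which anchors protein kinase A, was called higher at 12 h (2.14) and 24 h (1.03, edgeR adjusted p = 0.00154). GJC1, the gap junction protein connexin 45, and HIC2, a zinc finger repressor, were called higher at 12 h (1.03 and 0.86) and not at 24 h (-0.21 and -0.35, edgeR adjusted p = 0.352 and 0.316). The liprin PPFIA4, the repressor ZNF488, CASTOR2, a regulator of the kinase complex mTORC1, and IFFO2, a relative of intermediate filament proteins, likewise were called higher at 12 h (1.16, 1.38, 0.79 and 0.44), but leaving out single libraries ended these calls in 3, 2, 5 and 3 of 11 fits (adjusted p up to 0.0865, 0.0763, 0.0983 and 0.0785). IGSF9B, an adhesion protein of synapses, was not called at 12 h against 0 h (0.42, edgeR adjusted p = 0.0882) and was called lower at 24 h (-0.76), a call lost without 24 h replicate 2 (-0.56, adjusted p = 0.0683).

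Of 30 canonical targets of the hypoxia-inducible factors, all eligible, 0 were members. Over all eligible genes, 150 of 11557 were members. Of the 30 targets, edgeR called 28 higher at 12 h (background 24.2%) and 28 at 24 h (background 29.9%), with medians of 2.28 and 2.53. In all, 20 of the 24 gene lists, including those of ATF4 targets, cholesterol synthesis, p53 targets and the cell cycle, held 0 members, and 9 members stood on any list. Short lists can hold 0 members at that share alone, so nothing is read from these counts.

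Libraries of a time point did not agree on all members, and 2 of them, 6 h replicate 3 and 12 h replicate 1, differed in the same way. Among the members, 24 (16%, against 18.9% of eligible genes) were highest in both of these libraries within their time points, and 67 (44.7%, against 25.8%) were lowest in both. The first kind held all 6 chaperones (HSPA1A, HSPA1B, HSPA1L, HSPA6, BAG3 and DNAJA4), SPRY4, DUSP6, FOSL1, THBS1, IQCN and the survival factor MCL1. On the lists fixed for this work, 8 of 15 heat shock genes and 11 of 22 ERK genes were highest in both, against 2 of 30 HIF targets and 0 of 35 ribosome biogenesis genes. The second kind included SPEN, FLNC and SLC5A3. The part of these libraries in the values above was not tested beyond leaving each one out.

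The members shared a structure that the rule had not used. Their canonical transcripts had a median length of 5963 bases, against 3431 for the eligible genes, and 88 of 150 (58.7%, against 28.3%) were longer than 5000 bases. They nevertheless had fewer exons, a median of 5.5 against 9, so that a median of 950 bases of transcript fell to each exon, against 326. Single-exon genes were 10 of the members (6.67%, against 2.15%), among them HSPA1A, HSPA1B, HSPA6 and MARS2, and 28 (18.7%, against 6.42%) had 1 or 2 exons. Of the eligible genes longer than 5000 bases with at most 4 exons, 7.08% were members, whereas 0.375% were of those at or under 5000 bases with more than 4 exons.

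**Figure D4:**
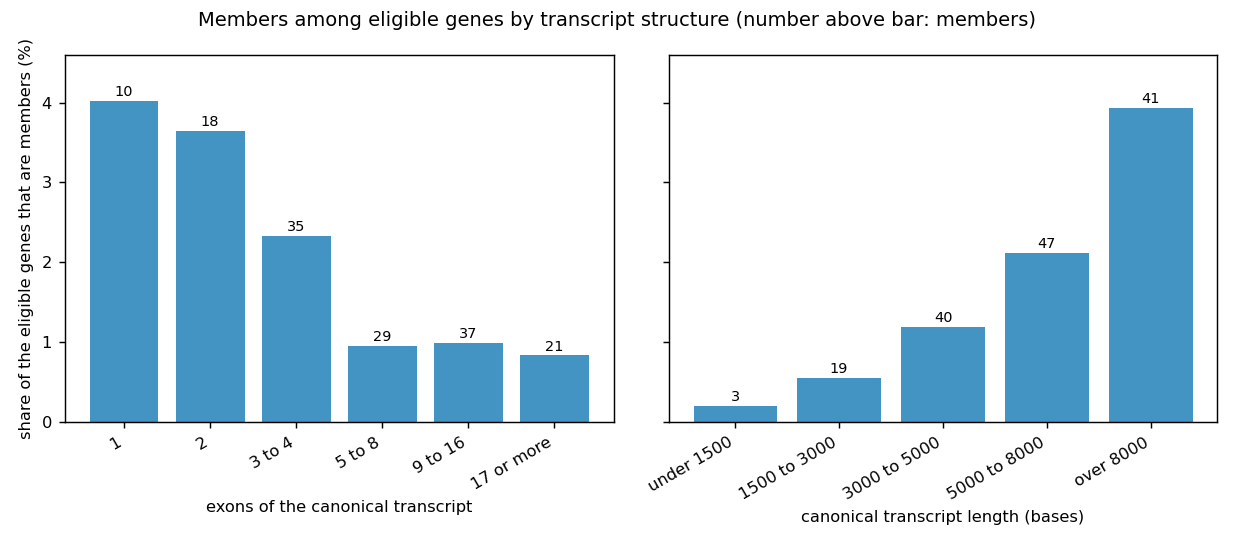
Bars give the share of eligible genes that are members by number of exons (left) and by transcript length (right), from 0, with the number of members above each bar. The share falls from 4.02% of single-exon genes to 0.835% of those with 17 or more exons, and rises from 0.204% of transcripts of 1500 bases or less to 3.93% of those over 8000 bases.

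Transcript length also moved with the libraries. Eligible genes over 8000 bases lay between 0.11 and 0.29 above their means at 6 h, and 0.29 and 0.88 below them at 24 h, in the direction of the score. With an offset for transcript length and GC content, an alternative chosen after the data were seen, 89 of the 150 genes would have been selected, and 36.7% of the set selected then was longer than 5000 bases while 21.3% had 1 or 2 exons. The members' counts at 24 h against 0 h became 101 higher and 0 lower (background 36% and 25.7%), and 50 were called lower at 24 h than at 12 h (background 7.63%). The direction of the members' calls at 24 h against normoxia therefore depended on this choice.

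**Figure D5:**
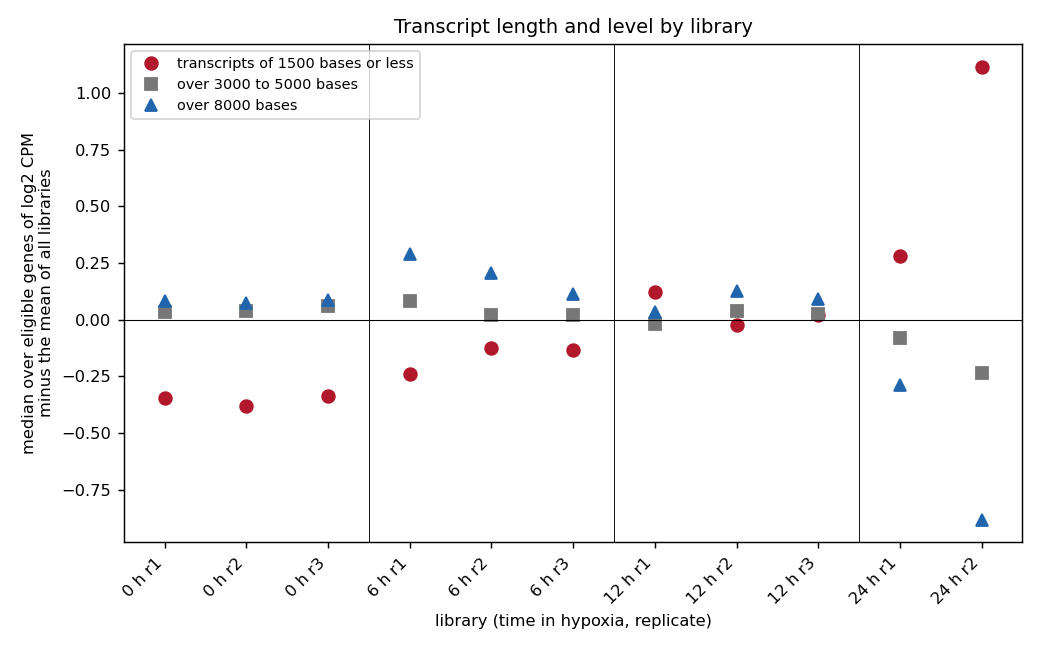
For each of the 11 libraries on the x axis, points give the median over eligible genes of log2 CPM minus the mean of all libraries, for 3 classes of transcript length. At 0 h and 6 h the short transcripts lie below the long ones, at 12 h the classes lie close together, and at 24 h the order is turned round, most in replicate 2, where transcripts of 1500 bases or less are at 1.12 and those over 8000 bases at -0.88.

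Promoters were searched for short motifs on both strands in windows of 250 bases before to 50 bases after the RefSeq start, which were at hand for 105 members and 9494 eligible genes. The HIF core ACGTG was found in 28 member windows (26.7%), against 27.2% of eligible and 21.6% of all windows. The heat shock motif GAANNTTC, searched for after the data were seen, was in 8 (7.62%), against 4.52% and 6.87%, and besides HSPA1A, HSPA1B, HSPA1L and HSPA6 these were AOC2, FRMD8, SEMA7A and SETD1A. The AP-1 site TGANTCA was in 7 (6.67%, against 4.41% of eligible windows), the CRE TGACGTCA in 2 (1.90%, against 3.42%), the ETS site CCGGAAGT in 4 (3.81%, against 9.22%), TATAAA in 8 (7.62%, against 5.35%), the GC box GGGCGG in 82 (78.1%, against 71.6%), and CCAAT in 41 (39.0%, against 37.2%). The windows of members had a median GC content of 70.0%, against 65.7%. These shares are descriptions of letters in a fixed window and carry no test.

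The choice was repeated without each of the 0, 6 and 24 h libraries in turn, and the genes then taken were looked up in the library left out. In each 0 h library left out, 150 of 150 lay below their 6 h mean by the score's sign, where 51.8% to 52.6% of eligible genes did. In the 6 h libraries left out, 149, 150 and 150 of the 150 lay above both other means (31.0%, 28.9% and 25.7% of eligible genes), and in the 24 h libraries left out, 145 and 148 lay below the 6 h mean (49.9% and 51.1%). Each library left out was set against means that the choice had used, in values scaled over all 11 libraries. Counts near 150 are therefore largely built in and are given as a description. Between 112 and 145 of the original 150 were taken in each repeat, fewest without 24 h replicate 1, and 80 were taken in all 8.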

How the data were processed

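RNA longer than 200 bases was made into stranded TruSeq libraries in a single batch of 12 and read as 75-cycle single ends. Per the submitters' processing notes and the study's methods, the authors trimmed the reads with Trimmomatic, aligned them to GRCh38 with STAR (Ensembl release 99) and counted them per gene with featureCounts, and they deposited the raw counts, neither filtered nor normalized. The strand setting and the treatment of reads with several matches are not given in the sources used here, so genes that overlap or have copies are uncertain. Each of the 11 columns carried the time point and replicate of 1 sample, which left 0 columns unused.

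Symbols, transcripts and exons came from GENCODE release 44 on GRCh38, in which 60357 of 60676 identifiers were found. filterByExpr kept 19981 genes (minimum count 10). TMM factors ran from 0.539 in 24 h replicate 2 to 1.32. edgeR's quasi-likelihood fit held a mean per time point over all 11 libraries, with a biological coefficient of variation of 19.6%, and p-values were adjusted over all tested genes. Standard errors (SE) of log2 fold changes were derived from the F statistic, as the size of the change divided by its square root. Totals of 27496009 to 49488345 counts limit precision mainly for genes of few reads. The test was checked on simulated counts.

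The members and lists were chosen with earlier results of these data known. Genes named are the 30 highest scores, members on a list, the 5 lowest and highest for the share kept at 12 h and, among members called at 24 h against 0 h, for that fold change, and the last 3 members, besides genes said to be named after their values were seen. From these, 1 gene is not reported here. Samples with the same replicate number did not deviate together (correlations from -0.16 to 0.21). Alternatives exchanged the test (limma-voom, DESeq2), scaling, filter, libraries, a block for the replicate number and the terms of the score, and an offset for transcript length and GC content was added after the data were seen. The tools were edgeR 4.0.16, DESeq2 1.42.0 and limma 3.58.1 in R 4.3.3, with matplotlib 3.10.9 in Python 3.11.15.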

Additional observations from a re-analysis of the deposited data

Results flagged for a closer look

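Of the 150 members, 8 were called higher at 12 h and lower at 24 h against the same 0 h libraries, with 24 h also called below 12 h by edgeR's quasi-likelihood test (5.33%, against 77 genes or 0.385% of all tested). They were drawn to attention because the effect at 12 h and the effect at 24 h pointed in opposite directions and the test of 24 h against 12 h passed for each. These 8 were IRS1, FBXL18, NIPAL1, SHROOM3, MCL1, DUSP7, PEAK1 and BACH2, with log2 fold changes of 0.39 to 0.84 at 12 h and of -0.88 to -0.41 at 24 h. NIPAL1, a magnesium transporter, moved from 0.84 to -0.61 (adjusted p = 0.00147 for 24 h against 12 h by edgeR). MCL1, which blocks apoptosis, moved from 0.43 to -0.41 (adjusted p = 0.0028). The 24 h libraries were used in choosing the members, and with an offset for transcript length and GC content 0 of the 150 members were called lower at 24 h. Library size scaling, the offset and a fit of only the 2 groups compared each left 0 of the 8, and the replicate block left 5, without DUSP7, MCL1 and BACH2. Leaving out 1 library at a time left between 4 and 7 of the 8, fewest without 0 h replicate 1, while other members joined them, up to 29 in all without 24 h replicate 1. DUSP7 lost its call at 12 h in 9 of these 11 fits, BACH2 in 6 and MCL1 in 3.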

How the results depend on the processing

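The members' calls at 12 h were stable to the choice of test: limma-voom and DESeq2 each called 133 higher than 0 h, against 131 by edgeR. With the replicate number as a block, 126 members were called higher at 12 h and 57 lower than at 6 h, 106 lower at 24 h than at 12 h, and 38 higher and 12 lower at 24 h against 0 h, all within 1.5 times the counts without it; the samples share only a number.

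Scaling by library size alone shifted the median of all tested genes by -0.47 at 12 h and -0.91 at 24 h against 0 h. It left 61 members called higher at 12 h, 9 higher and 75 lower at 24 h, and 81 genes of the 150 under the rule. Relative to zero, the members' median at 24 h then turned to -0.74, and values at 24 h turned for TXNIP (-0.87), GPR75 (-0.93), BEND3 (-0.84), TWNK (-0.69), FASTKD5 (-0.47), F2RL1 (-0.35), CCND1 (-0.65) and CHST15 (-0.45), and at 12 h for IFFO2 (-0.032), DUSP7 (-0.082), BACH2 (-0.012) and PSPN (-0.036). With at least 10 counts in every library, 25 members were called lower at 24 h and their median was -0.046. With only the 2 groups compared in the fit, edgeR called 0 members lower at 24 h than at 12 h, and 0 of all genes, although 113 members had an unadjusted p under 0.05; 3 libraries against 2 were then alone in the fit.

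With the offset for length and GC content, 50 members were lower at 24 h than at 12 h, 101 higher and 0 lower at 24 h against 0 h, and 89 were kept by the rule. Values at 24 h turned for LUZP1 (0.43), URB2 (0.54), IRS1 (0.42), IGSF9B (0.49), GTF3C4 (0.32), IFFO2 (0.51), FBXL18 (0.15) and HIC1 (0.032). When the score also had to exceed the 12 h mean, 73 were kept. The other settings of the rule kept 106 to 149.

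Leaving out each library once, 111 to 137 members were called higher at 12 h, 12 to 112 lower at 12 h than at 6 h, 81 to 123 lower at 24 h than at 12 h, 27 to 52 higher and 11 to 36 lower at 24 h against 0 h, and 112 to 145 were kept by the rule. The members' median at 24 h ran from -0.11 to 0.28, NNAT from -1.54 to 0.94, ENSG00000269825 from -1.24 to 0.60 and PIK3R1 from -0.68 to 0.40, each lowest without 24 h replicate 1 and highest without 24 h replicate 2. The causes were not tested. Of 1802 values of named genes compared with the main fit, 57 that were never called changed sign. With 2 libraries at 24 h, differences there rest on a spread estimated mainly from the other times.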
